A study of Mus musculus with 62 samples.

Results

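The 26S proteasome is the protease that removes most short-lived and damaged proteins from a cell once they have been tagged with ubiquitin. Its barrel-shaped core particle (20S) is built from an outer alpha ring and an inner beta ring, and the beta ring holds the cutting sites. Its regulatory particle (19S) sits on the end of the barrel, where it recognises ubiquitin chains, removes them and feeds the unfolded protein into the core with a ring of ATPases. In wasting muscle the genes for these subunits are known to be transcribed more, which makes them a standard readout of atrophy, and the question here was whether they do the same in the neocortex of mice with a wasting tumour.

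The proteasome genes were taken by symbol, as all rows named Psma, Psmb, Psmc, Psmd or Psme with a number, without the immunoproteasome subunits Psmb8, Psmb9 and Psmb10 and the thymus subunit Psmb11. This gave 39 genes of the 47643 rows of the table. They were 15 core particle genes (8 alpha and 7 beta), 17 regulatory particle genes (6 ATPases, 3 other subunits of the base and 8 of the lid), 3 chaperones that assemble the regulatory particle and carry Psmd symbols (Psmd5, Psmd9 and Psmd10), and 4 activator genes (Psme1 to Psme4). Expression was measured by RNA sequencing of neocortex from female mice that were 2 months old at injection. The mice received cachectic melanoma cells (CAC, the cells that cause wasting), non-cachectic melanoma cells (NCAC) or a mock injection (Con), and tissue was taken 2, 4, 6 or 8 weeks later. Each of the 12 groups had 5 libraries, except for CAC at 8 weeks with 7, which made 62 libraries, and no group was free of an injection. The series' design text names athymic nude mice as hosts, whereas the sample labels give the strain as C57BL6/J, and nude mice lack most T cells.

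Values are in TPM, a transcript level scaled for gene length and for the total of each library. From the step size of low values the libraries held an estimated 44.9 to 50.7 M counted reads (median 48.2 M). All 6 markers of each of excitatory neurons, inhibitory neurons, astrocytes, microglia and oligodendrocytes were above 1 TPM in every group. A few libraries stood apart by markers of neighbouring tissue. Con library 5 at 2 weeks exceeded the median library by 6.80 in mean log2 level of hypothalamus and pituitary markers and by 2.32 in thalamus markers. CAC library 1 at 4 weeks lay 3.21 below it in striatum markers, and CAC library 3 at 8 weeks exceeded it by 3.49 in erythroid markers. NCAC library 1 at 4 weeks and CAC library 1 at 6 weeks exceeded it by 2.78 and 2.59 in hypothalamus and pituitary markers. CAC library 5 at 6 weeks lay 2.15 below it in choroid plexus markers. In erythroid markers CAC library 4 at 8 weeks lay 2.35 below it. At 4 weeks every CAC library was on sequencing lane 3 and every Con library on lane 4, while all groups of the other weeks shared a lane within their week. In whole tissue, fewer cells of a type and less RNA per cell cannot be told apart.

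Transcription of proteasome genes is known to be driven by the factor NRF1 (gene Nfe2l1) through antioxidant response elements, whose core was searched here as TGACNNNGC on both strands. The 250 bases upstream of the RefSeq start (GRCm38.p6) were available for 32 of the 39 genes. The element was in the window of 5 of these 32 genes (15.6%), against 13.9% of the 10780 tested genes with a window and 11.5% of all 27025 genes with one. It was found for Psmb5, Psmb6, Psmc6, Psmd12 and Psmd9. The CCAAT box was upstream of 12 of the 32 genes (37.5%) against 40.1% of tested genes. The GC box, searched as GGGCGG, was upstream of 20 of the 32 genes (62.5%) against 63.5%. The shares of all 3 motifs thus lay close to those upstream of other expressed genes, and the differences were not tested. Windows of 4 genes that recur below are shown 5′ to 3′ on the gene's own strand, with the bases inside annotated exons left out. Capitals mark the TGACNNNGC match in the windows of the catalytic subunits Psmb5 and Psmb6 and of the chaperone Psmd9. In the window of the ubiquitin receptor Psmd4, which has no such match, they mark its CCAAT box, here on the opposite strand.
Psmb5 (chr14:54618023-54618245, minus strand): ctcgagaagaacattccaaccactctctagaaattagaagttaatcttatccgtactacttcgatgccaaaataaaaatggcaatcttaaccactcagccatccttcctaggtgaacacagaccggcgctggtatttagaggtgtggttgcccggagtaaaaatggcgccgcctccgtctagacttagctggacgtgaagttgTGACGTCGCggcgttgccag
Psmb6 (chr11:70525107-70525356, plus strand): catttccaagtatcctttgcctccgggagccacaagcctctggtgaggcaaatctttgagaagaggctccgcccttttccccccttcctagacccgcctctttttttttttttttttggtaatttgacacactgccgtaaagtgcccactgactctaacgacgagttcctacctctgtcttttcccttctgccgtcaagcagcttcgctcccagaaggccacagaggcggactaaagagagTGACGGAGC
Psmd9 (chr5:123227940-123228189, plus strand): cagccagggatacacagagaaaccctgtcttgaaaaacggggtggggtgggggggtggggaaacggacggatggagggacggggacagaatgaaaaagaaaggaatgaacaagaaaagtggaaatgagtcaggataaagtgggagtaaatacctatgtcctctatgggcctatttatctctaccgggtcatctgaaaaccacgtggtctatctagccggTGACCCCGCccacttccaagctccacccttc
Psmd4 (chr3:95042615-95042864, minus strand): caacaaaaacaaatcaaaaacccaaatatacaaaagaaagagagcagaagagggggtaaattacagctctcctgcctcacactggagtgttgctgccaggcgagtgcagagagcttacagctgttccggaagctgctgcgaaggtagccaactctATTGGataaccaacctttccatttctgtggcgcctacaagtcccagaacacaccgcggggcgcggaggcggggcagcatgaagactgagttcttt

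The proteasome genes were abundant in neocortex, and their levels were stable. Together they made up between 3499 and 4804 TPM per library, with a median of 4190 TPM. The highest were the ATPase Psmc5 with a mean of 328 TPM over the 62 libraries and the beta subunit Psmb1 with 323 TPM. Next came the ATPase Psmc1 with 250 TPM, the alpha subunit Psma2 with 235 TPM and the beta subunit Psmb4 with 204 TPM. The median gene mean was 130 TPM for core genes and 83.0 TPM for regulatory genes. The catalytic subunits Psmb5, Psmb6 and Psmb7, which carry the chymotrypsin-like, caspase-like and trypsin-like activities, averaged 166, 131 and 101 TPM. Psmd14, the enzyme of the lid that cuts off ubiquitin chains, averaged 68.2 TPM. The assembly chaperones were low, with means of 24.8 TPM for Psmd10, 22.1 TPM for Psmd5 and 12.1 TPM for Psmd9. Psma8, the alpha subunit of the testis proteasome, averaged 0.828 TPM with a range of 0.344 to 1.36 TPM. It was the 1 gene below the minimum mean of 1 TPM set for testing, so the tests below concern the other 38 genes. The core and regulatory genes passed that minimum with 14 and 17 genes.

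**Figure D1:**
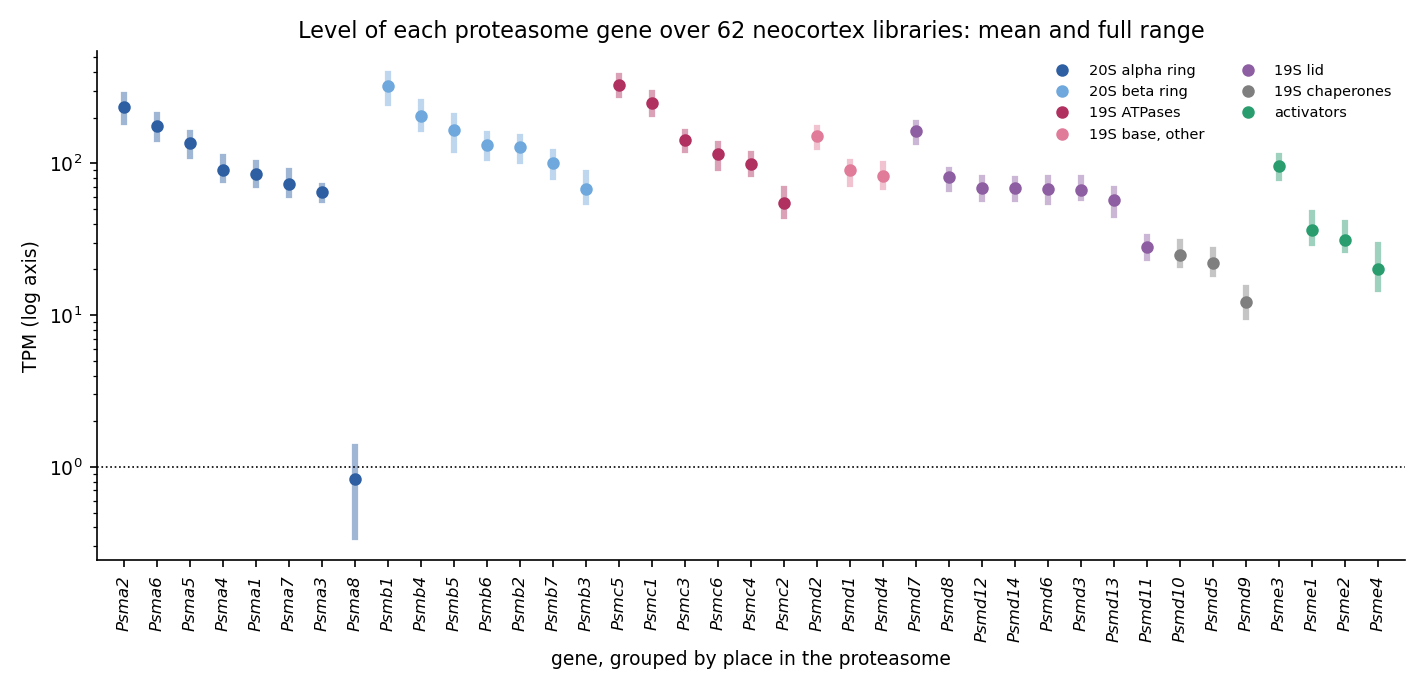
Level of each of the 39 proteasome genes in TPM on a log axis, ordered by place in the particle and then by mean. Points are means and bars the full range over all 62 libraries, and the dotted line is the 1 TPM minimum for testing. All genes except Psma8 lie well above the line, from Psmd9 with 12.1 TPM to Psmc5 with 328 TPM.

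Over all libraries the coefficient of variation ran between 5.24% for the alpha subunit Psma3 and 15.8% for the activator Psme4, with a median of 7.35%. The most variable gene, Psme4, differed by 1.94 times between its highest and its lowest library, and Psma3 by 1.24 times. Within groups the median standard deviation of the log2 level was 0.0826 for the 38 genes. It was 0.138 for all 14494 tested genes and 0.117 for the 8365 tested genes of the same level range. The typical proteasome gene thus scattered less within groups than the typical tested gene of that range. The range runs from the lowest to the highest of the 38 genes. Genes within it were not matched for level, and the part of level in this difference was not tested.

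The comparisons below were fitted with limma on log2(TPM + 1) over all libraries, and a gene was called at an adjusted p under 0.05 (Benjamini-Hochberg over 14494 genes). Fold changes on this scale understate the change of low genes. The labels call the libraries biological replicates, and p-values measure the spread between them. In the 12 comparisons within a week, 22 of the 38 genes were called at least once, 30 calls were made out of 456 values, and every call was higher in the arm named first (CAC against NCAC or Con, and NCAC against Con). The called differences were small, between 1.097-fold and 1.18-fold. No proteasome gene was called lower in any comparison.

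At 2 weeks, 2 regulatory subunits rose in CAC neocortex relative to Con, 2 of 38 genes (5.26%) where 4.28% of all tested genes were called, 3.68% higher. Psmd8, a lid subunit, had 87.9, 76.6, 81.8, 78.0 and 81.6 TPM in CAC libraries, against 72.8, 69.998, 67.9, 78.5 and 74.2 TPM in Con libraries. Con library 4 lay inside the CAC range, and the other Con libraries lay below it. The log2 fold change of Psmd8 was 0.16 ± 0.045 (SE, limma adjusted p = 0.0336). Psmd2, the scaffold of the base that docks ubiquitin-binding proteins, had 162, 152, 153, 135 and 152 TPM in CAC libraries, against 127, 127, 133, 131 and 151 TPM in Con libraries. Con library 5, the one with hypothalamic markers, was the only Con library inside the CAC range of Psmd2. Its log2 fold change was 0.17 ± 0.052 (limma adjusted p = 0.0473).

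Core genes leaned the same way at 2 weeks without a call: all 14 had a log2 fold change above 0, with a median of 0.10. All 17 regulatory genes were above 0 as well, with a median of 0.12, where 59.8% of all tested genes were. Most proteasome genes varied together between libraries, as given below, so counts of signs are not counts of independent values. Over the 38 genes the median was 0.11, against 0.04 over all tested genes, and 22 genes had an unadjusted p under 0.05 in the direction of CAC, as had 15.9% of all tested genes. Psmd7, Psma4 and Psma7 were higher in every CAC library than in every Con library, with limma adjusted p = 0.110, 0.157 and 0.195, and 3.04% of all tested genes had groups apart in this way. The count of 2 calls was 0 without CAC library 1, 3 or 5 or Con library 1, 2 or 3, 1 without CAC library 2 or Con library 5, and 9 without CAC library 4. It was 1 with TMM scaling and 0 with only these groups in the fit.

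Of the comparisons within a week, the largest number of calls came in NCAC against Con at 2 weeks, between the arm with non-cachectic cells and the mock injection. Here 15 of 38 genes rose in NCAC (39.5%), against 8.71% of all tested genes called in either direction and 5.87% called higher. They were 7 of the 14 core genes and 8 of the 17 regulatory genes, and none of the chaperones or activators. Psma5, an alpha subunit, had 138, 157, 126, 134 and 146 TPM in NCAC libraries, against 116, 112, 118, 124 and 123 TPM in Con libraries. The groups did not overlap, and the log2 fold change was 0.24 ± 0.059 (limma adjusted p = 0.0131). Psmc3, an ATPase, had 140, 157, 142, 140 and 157 TPM in NCAC libraries and 123, 122, 122, 136 and 127 TPM in Con libraries, again without overlap. Its log2 fold change was 0.22 ± 0.052 (limma adjusted p = 0.00881). Groups were apart in this direction for 3 of the 38 genes (Psmc3, Psma4 and Psma5) and for 2.79% of all tested genes. The other calls were Psmd2, Psma2, Psmd8, Psmb5, Psmd1, Psma4, Psmb7, Psmd13, Psmd6, Psmb2, Psmc1, Psmb1 and Psmd7, with log2 fold changes between 0.13 and 0.21. The catalytic subunits Psmb5 and Psmb7 were thus among them, and the remaining one, Psmb6, had a log2 fold change of 0.13 with a limma adjusted p of 0.0755.

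The same 5 Con libraries at 2 weeks serve both comparisons, and they held the lowest proteasome levels of any group. The mean log2 level of the 38 genes was 6.37 ± 0.059 in CAC, 6.40 ± 0.086 in NCAC and 6.27 ± 0.065 in Con at 2 weeks (SD, n = 5 each). In the other 9 groups the mean of this level lay between 6.39 and 6.50. CAC against NCAC at 2 weeks gave no call (limma, 0% of all tested genes called), and 0 of the 38 genes had an unadjusted p under 0.05, against 4.25% of all tested genes. Of the 38 genes, 6 had a value above 0 in that comparison, against 56.4% of all tested genes, and the median was −0.04 against 0.01 over all tested genes.

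Cell-type markers moved in the same libraries. All 6 excitatory neuron markers were higher and all 6 astrocyte, microglia, oligodendrocyte and endothelial markers were lower, by group mean, in both CAC and NCAC than in Con at 2 weeks. The summed level of the excitatory neuron markers ran from 4393 to 5855 TPM in CAC, from 4137 to 5374 TPM in NCAC and from 2774 to 5200 TPM in Con. The summed endothelial markers ran from 195 to 245 TPM in CAC, from 153 to 231 TPM in NCAC and from 226 to 264 TPM in Con. The summed astrocyte markers ran from 1599 to 1749 TPM in CAC, from 1388 to 1831 TPM in NCAC and from 1674 to 2024 TPM in Con. None of these markers was at 0 in any of the 3 groups, and their part in the result was not tested. The choroid plexus markers were also higher in both tumour arms, all 6 of them, with sums of 46.8 to 2563 TPM in CAC, 103 to 2446 TPM in NCAC and 65.6 to 1190 TPM in Con. With the scores of 6 tissue marker lists as terms in the fit (erythroid, olfactory, hypothalamus with pituitary, choroid plexus, thalamus and striatum), the number of calls was 2 for NCAC against Con and 0 for CAC against Con. The medians of the 38 genes were then 0.17 for NCAC and 0.14 for CAC, against 0.15 and 0.11 without those terms.

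The 15 calls also rested on single libraries. Their number was 0 without NCAC library 2, 2 without NCAC library 5, 7 without NCAC library 1 or Con library 1, 5 without Con library 2, and 4 without Con library 3. Without Con library 5 at 2 weeks, CAC library 1 at 4 weeks and CAC library 3 at 8 weeks together it was 23, and with only these groups in the fit it was 0.

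**Figure D2:**
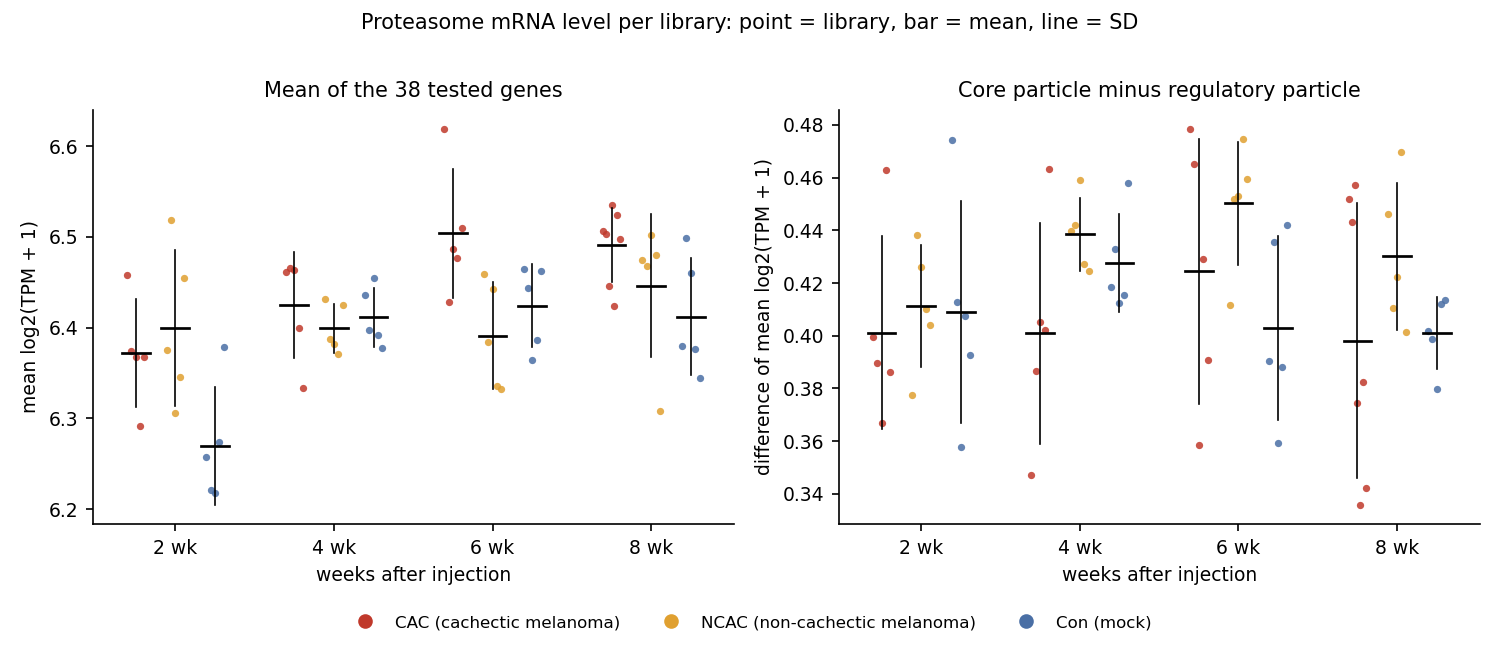
Each point is 1 library, by week, with CAC, NCAC and Con side by side. The left panel gives the mean log2(TPM + 1) of the 38 tested proteasome genes. The right panel gives the core mean minus the regulatory mean, and bars are group means and lines 1 SD. The Con libraries at 2 weeks are low in the left panel, with a mean of 6.27, and the arms overlap in the right panel.

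At 4 weeks no proteasome gene was called in CAC against Con, where 0.0414% of all tested genes were called by limma. An unadjusted p under 0.05 was reached by 3 genes in the direction of CAC and 1 in the direction of Con, and by 13.1% of all tested genes. The chaperone Psmd9 had 12.9, 12.4, 12.4, 12.9 and 12.3 TPM in CAC libraries, against 10.7, 11.1, 11.1, 11.4 and 10.7 TPM in Con libraries. The groups were apart, as for 0.635% of all tested genes, yet the log2 fold change of 0.17 ± 0.055 did not pass (limma adjusted p = 0.201). Psme4, the activator PA200, had 28.9, 24.5, 19.3, 23.1 and 16.5 TPM in CAC and 16.9, 18.4, 19.4, 18.3 and 16.4 TPM in Con, with overlap (log2 fold change 0.29 ± 0.118, limma adjusted p = 0.289). At the other end, the catalytic subunit Psmb5 had 138, 148, 170, 159 and 166 TPM in CAC, against 178, 175, 180, 169 and 167 TPM in Con. Its log2 fold change was −0.15 ± 0.058 (limma adjusted p = 0.274). The chaperone Psmd10 had a log2 fold change of −0.11 (limma adjusted p = 0.483), with 21.4, 26.0, 24.2, 24.5 and 23.3 TPM in CAC and 28.8, 23.9, 25.7, 24.8 and 26.1 TPM in Con.

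The median over the 38 genes at 4 weeks was 0.01, against 0.04 over all tested genes, and it was −0.04 with TMM scaling, so no direction can be given. With lane as a term it was 0.05 and no gene was called, but that term rests on NCAC library 5 alone, the only library of its group on lane 4, so lane and arm cannot be told apart in CAC against Con at 4 weeks. CAC against NCAC at 4 weeks likewise had no call (0.00690% of all tested genes called by limma), with 4 genes at an unadjusted p under 0.05 in the direction of CAC and 1 the other way (16.3% of all tested genes in either direction). In that comparison too Psmd9 was higher in every CAC library, as were 0.973% of all tested genes, and the median over the 38 genes was 0.02, or −0.04 with TMM scaling. Without CAC library 5, 1 gene was called against Con and 2 were called against NCAC.

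At 6 weeks 1 gene of 38 rose in CAC relative to Con (2.63%), where 1.63% of all tested genes were called. This was Psmb3, a beta subunit without a cutting site, with 86.8, 73.9, 68.4, 80.0 and 76.0 TPM in CAC libraries, against 67.4, 69.2, 60.4, 67.9 and 69.4 TPM in Con libraries. CAC library 3 lay within the Con range, and the other CAC libraries lay above it. The log2 fold change was 0.20 ± 0.051 (limma adjusted p = 0.0283), and the call was lost with TMM scaling (limma adjusted p = 0.151), with only these groups in the fit (limma adjusted p = 0.198) and without CAC library 1 or 4 or Con library 3 or 4. Psmd4, the ubiquitin receptor of the base, was higher in every CAC library (87.9 to 96.6 TPM, median 90.9) than in every Con library (78.5 to 87.0 TPM, median 83.5), with a limma adjusted p of 0.117. It was the 1 gene of 38 with groups apart, and 2.64% of all tested genes were apart in this direction. Psmb5, with 173 to 205 TPM in CAC and 147 to 182 TPM in Con, had a log2 fold change of 0.18 (limma adjusted p = 0.109). Cell-type markers differed in these libraries too. Of the oligodendrocyte markers 5 of 6 were lower by group mean, with sums of 1694 to 1903 TPM in CAC and 1754 to 2345 TPM in Con. Of the endothelial markers 5 of 6 were higher, with sums of 224 to 281 TPM in CAC and 198 to 219 TPM in Con, without overlap. No marker of either list was at 0, and their part in the result was not tested.

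At 6 weeks 8 genes rose in CAC relative to NCAC (21.1% of 38), against 9.65% of all tested genes called in either direction and 8.05% called higher. They were the core subunits Psmb3 and Psma7, the regulatory subunits Psmd4, Psmc1, Psmd13 and Psmd12, the chaperone Psmd9 and the activator Psme3. Psmd9 had 14.6, 12.3, 12.7, 13.7 and 13.2 TPM in CAC, against 11.8, 11.8, 11.7, 10.7 and 10.9 TPM in NCAC. The groups did not overlap (log2 fold change 0.20 ± 0.055, limma adjusted p = 0.0170). Psmd4 had 96.6, 87.9, 88.2, 90.9 and 91.7 TPM in CAC and 81.6, 80.3, 82.5, 75.2 and 80.3 TPM in NCAC, also without overlap (log2 fold change 0.19 ± 0.048, limma adjusted p = 0.0134). Psmc1, an ATPase that helps open the gate of the core, had 291, 251, 279, 264 and 276 TPM in CAC, against 248, 238, 252, 229 and 231 TPM in NCAC. NCAC library 3 was inside the CAC range, and the log2 fold change was 0.18 ± 0.048 (limma adjusted p = 0.0154).

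Psmb3 stood at 67.1, 68.1, 67.9, 67.4 and 67.9 TPM in NCAC at 6 weeks, all below the lowest CAC value of 68.4 TPM (log2 fold change 0.18 ± 0.051, limma adjusted p = 0.0224). The lid subunits Psmd13 and Psmd12 overlapped between the groups. Psmd13 had 67.4, 57.6, 62.1, 60.6 and 62.9 TPM in CAC and 58.8, 56.3, 56.3, 52.1 and 52.2 TPM in NCAC (0.17 ± 0.052, limma adjusted p = 0.0339). Psmd12 had 80.1, 67.8, 78.3, 71.6 and 74.95 TPM in CAC and 72.3, 64.1, 68.99, 65.1 and 61.3 TPM in NCAC (0.16 ± 0.056, limma adjusted p = 0.0481). In all, 4 of the 38 genes (Psmd9, Psmd4, Psmb1 and Psmb3) had groups apart, as had 5.26% of all tested genes with CAC higher.

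The scaling and single libraries weighed on the 6-week comparison of CAC with NCAC. The median over the 38 genes was 0.12, against 0.08 over all tested genes, and it was 0.04 with TMM scaling, which gave 0 calls. The number of calls was 0 without CAC library 1, which stood apart in hypothalamus and pituitary markers. It was 14 without CAC library 2, 3 without CAC library 4 or NCAC library 4 or 5, and 4 without CAC library 5 or NCAC library 2. With the 6 tissue marker scores as terms it was 0, and with only these groups in the fit it was 1. Mature oligodendrocyte markers were lower in CAC than in NCAC, all 6 of them, with sums of 1694 to 1903 TPM in CAC and 1927 to 2499 TPM in NCAC. Of the endothelial markers 4 of 6 were higher, with sums of 224 to 281 TPM in CAC and 182 to 226 TPM in NCAC. No marker of either list was at 0, and their part in the result was not tested.

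At 8 weeks 4 of 38 genes rose in CAC relative to Con (10.53%), against 8.60% of all tested genes called and 4.91% called higher. Psmd4 had 93.7, 90.3, 82.9, 93.0, 88.3, 95.5 and 87.9 TPM in CAC libraries, against 79.1, 83.2, 82.8, 82.8 and 74.3 TPM in Con libraries. CAC library 3, the one with erythroid markers, was the only CAC library inside the Con range. The log2 fold change of Psmd4 was 0.16 ± 0.044 (limma adjusted p = 0.0128). Psmc1 had 276, 272, 246, 280, 258, 288 and 274 TPM in CAC, against 241, 259, 247, 239 and 227 TPM in Con (0.16 ± 0.045, limma adjusted p = 0.0192). CAC libraries 3 and 5 lay inside the Con range of Psmc1.

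Psmd9 was the gene called at 8 weeks whose groups did not overlap, with 14.98, 13.9, 12.8, 13.2, 13.5, 13.5 and 13.7 TPM in CAC and 12.4, 12.4, 11.8, 12.4 and 11.5 TPM in Con (0.16 ± 0.051, limma adjusted p = 0.0333). Psma6, an alpha subunit, had 190, 193, 184, 189, 170, 207 and 183 TPM in CAC, against 172, 182, 171, 162 and 160.4 TPM in Con (0.15 ± 0.050, limma adjusted p = 0.0479). CAC library 5 was the only one inside the Con range of Psma6. The ATPase Psmc5 was also higher in all CAC libraries (332 to 360 TPM) than in all Con libraries (300 to 331 TPM), with a limma adjusted p of 0.0534. Groups were apart in this direction for 2 of the 38 genes and for 1.46% of all tested genes. Among the catalytic subunits, Psmb5 and Psmb7 had log2 fold changes of 0.15 and 0.16 with limma adjusted p = 0.0622 and 0.0527, and Psmb6 had 0.02. Psmd14 had a log2 fold change of 0.05 (limma adjusted p = 0.594).

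The median over the 38 genes at 8 weeks was 0.08, against 0.02 over all tested genes, and 37 of 38 values were above 0, against 54.9% of all tested genes. These values are not independent, since most of the genes varied together between libraries (median r of 0.53 over pairs). The number of calls was 8 without CAC library 3 or 5, 7 without Con library 2, 2 without CAC library 1 or 2 or Con library 1, 1 without CAC library 6 and 0 without Con library 5. It was 9 without Con library 5 at 2 weeks, CAC library 1 at 4 weeks and CAC library 3 at 8 weeks together. With the 6 tissue marker scores as terms it was 8, and with only these groups in the fit it was 2. All 6 microglia markers were lower in CAC than in Con by group mean, with sums of 354 to 486 TPM in CAC and 472 to 839 TPM in Con, where the highest sum was that of library 5. Of the oligodendrocyte markers 5 of 6 were lower, with sums of 1346 to 2049 TPM in CAC and 1698 to 2074 TPM in Con. Of the endothelial markers 4 of 6 were higher, with sums of 214 to 338 TPM in CAC and 208 to 225 TPM in Con. None of these markers was at 0, and their part in the result was not tested.

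CAC against NCAC at 8 weeks gave no call among the 38 genes (limma), while 6.02% of all tested genes were called. An unadjusted p under 0.05 was reached by 3 of the 38 genes, in the direction of CAC, as by 16.3% of all tested genes. Psmc1 had the above CAC values against 253, 260, 266, 252 and 225 TPM in NCAC, with a log2 fold change of 0.11 ± 0.045 (limma adjusted p = 0.142). The chaperone Psmd5 had 22.1 to 26.3 TPM in CAC (median 24.5) and 19.98 to 24.5 TPM in NCAC (median 22.1), with 0.14 ± 0.059 (limma adjusted p = 0.143). The lowest values were −0.05 for Psma5 and −0.04 for Psmb6 (limma adjusted p = 0.650 and 0.665). The median over the 38 genes was 0.04, against 0.05 over all tested genes, and with TMM scaling it was −0.01. Without CAC library 3 or NCAC library 3, 1 gene was called.

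**Figure D3:**
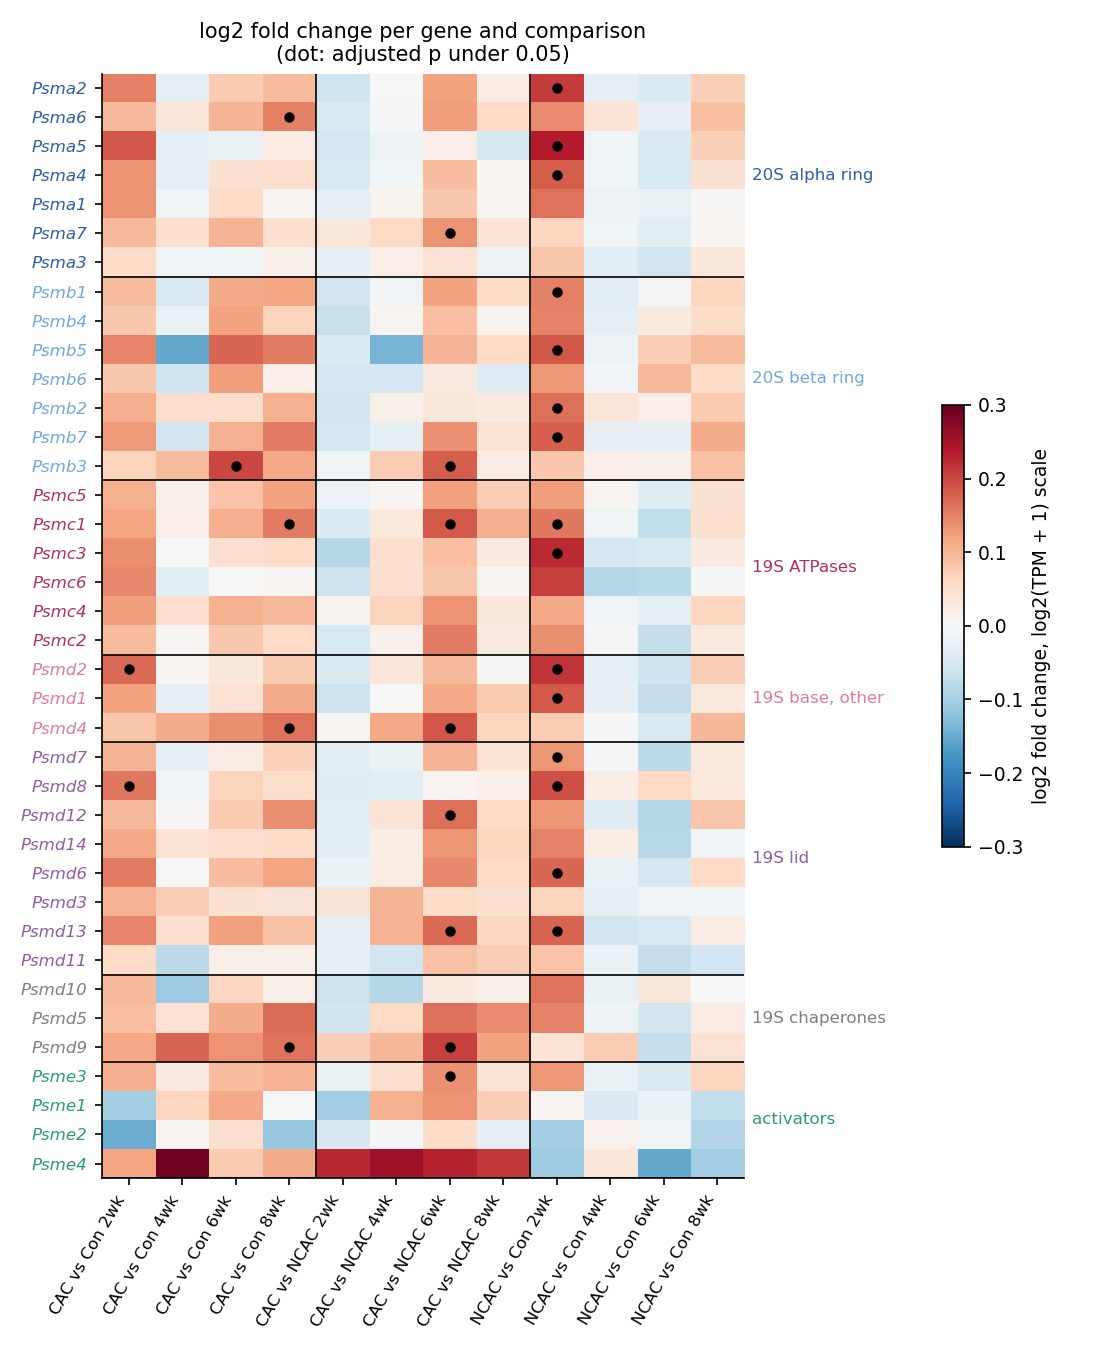
Log2 fold changes on log2(TPM + 1) of the 38 tested proteasome genes (rows, by place in the particle) in the 12 comparisons within a week (columns). Red is higher in the group named first, and a dot marks a limma adjusted p under 0.05. The 30 dots are all red, and 15 of them stand in the column of NCAC against Con at 2 weeks.

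In NCAC against Con at 4, 6 and 8 weeks no proteasome gene and no other tested gene was called by limma (0% in each). An unadjusted p under 0.05 was reached by 0, 2 and 1 of the 38 genes, and by 0.614%, 6.58% and 4.39% of all tested genes. Their medians were −0.02, −0.04 and 0.04, against −0.01, −0.05 and −0.04 over all tested genes, and the one at 6 weeks was 0.02 with TMM scaling. Nor did Con at 8 weeks differ from Con at 4 weeks, on the same lane, in any proteasome gene (limma, 0% of all tested genes called), with 4 of the 38 and 14.2% of all tested genes at an unadjusted p under 0.05.

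Averaged over the 4 weeks, 21 of the 38 genes rose in CAC relative to Con (55.3%), against 23.8% of all tested genes called and 17.8% called higher. They were 8 of 14 core genes, 10 of 17 regulatory genes, the chaperones Psmd5 and Psmd9, and Psme3. The mean differences were small, with a median of 0.07 over the 38 genes against 0.03 over all tested genes. Psmd9 led with 0.15 ± 0.027 (limma adjusted p = 8.5e-05), and 21 of 22 CAC libraries were above the Con mean of their week. Psmd4 followed with 0.12 ± 0.023 (limma adjusted p = 0.000112), with 20 of 22 CAC libraries above that mean. Psmb3 had 0.12 ± 0.025 (limma adjusted p = 0.000524) with 20 of 22, and Psmc1 had 0.10 ± 0.024 (limma adjusted p = 0.00155) with 19 of 22. With TMM scaling there were 8 calls, a count given without the share of all tested genes called under that scaling. This average holds the lane of the 4-week samples in it. It also holds the Con libraries at 2 weeks, which had the lowest proteasome levels of any group. CAC minus Con in the mean log2 level of the 38 genes was 0.10, 0.01, 0.08 and 0.08 at 2, 4, 6 and 8 weeks. NCAC against Con averaged over the weeks had no call (limma, 0% of all tested genes) and 9 genes at an unadjusted p under 0.05 (15.6% of all tested genes), with a median of 0.03 against −0.02 over all tested genes. The change of the CAC difference between 2 and 8 weeks was not called for any of the 38 genes, where 1.32% of all tested genes were called by limma. An unadjusted p under 0.05 for that change was reached by 0 of the 38 genes, and by 13.2% of all tested genes.

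For the 4 genes that lead this average, position and neighbouring annotation bear on the counting, since strand use is not given in the sources used here. Psmd4 lies on chromosome 3 (95032694 to 95042614, minus strand), Psmc1 on chromosome 12 (100110154 to 100123405, plus strand) and Psmb3 on chromosome 11 (97703399 to 97713500, plus strand; mm10, GENCODE). Their exons share no base with those of another annotated gene. Psmd9 (chromosome 5, 123169413 to 123250131, plus strand) shares 25.5% of its exonic bases with the long noncoding RNA Gm26745 on the opposite strand. That RNA averaged 0.000622 TPM. The RefSeq start of Psmd9 lies inside this GENCODE span, so its window shown above is upstream of that start only. Of the 39 genes, 10 share some exonic bases with another gene, and 4 share over 10%. The most abundant partner was Sirt3, with 114 TPM, opposite to 10.1% of the exonic bases of Psmd13.

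**Figure D4:**
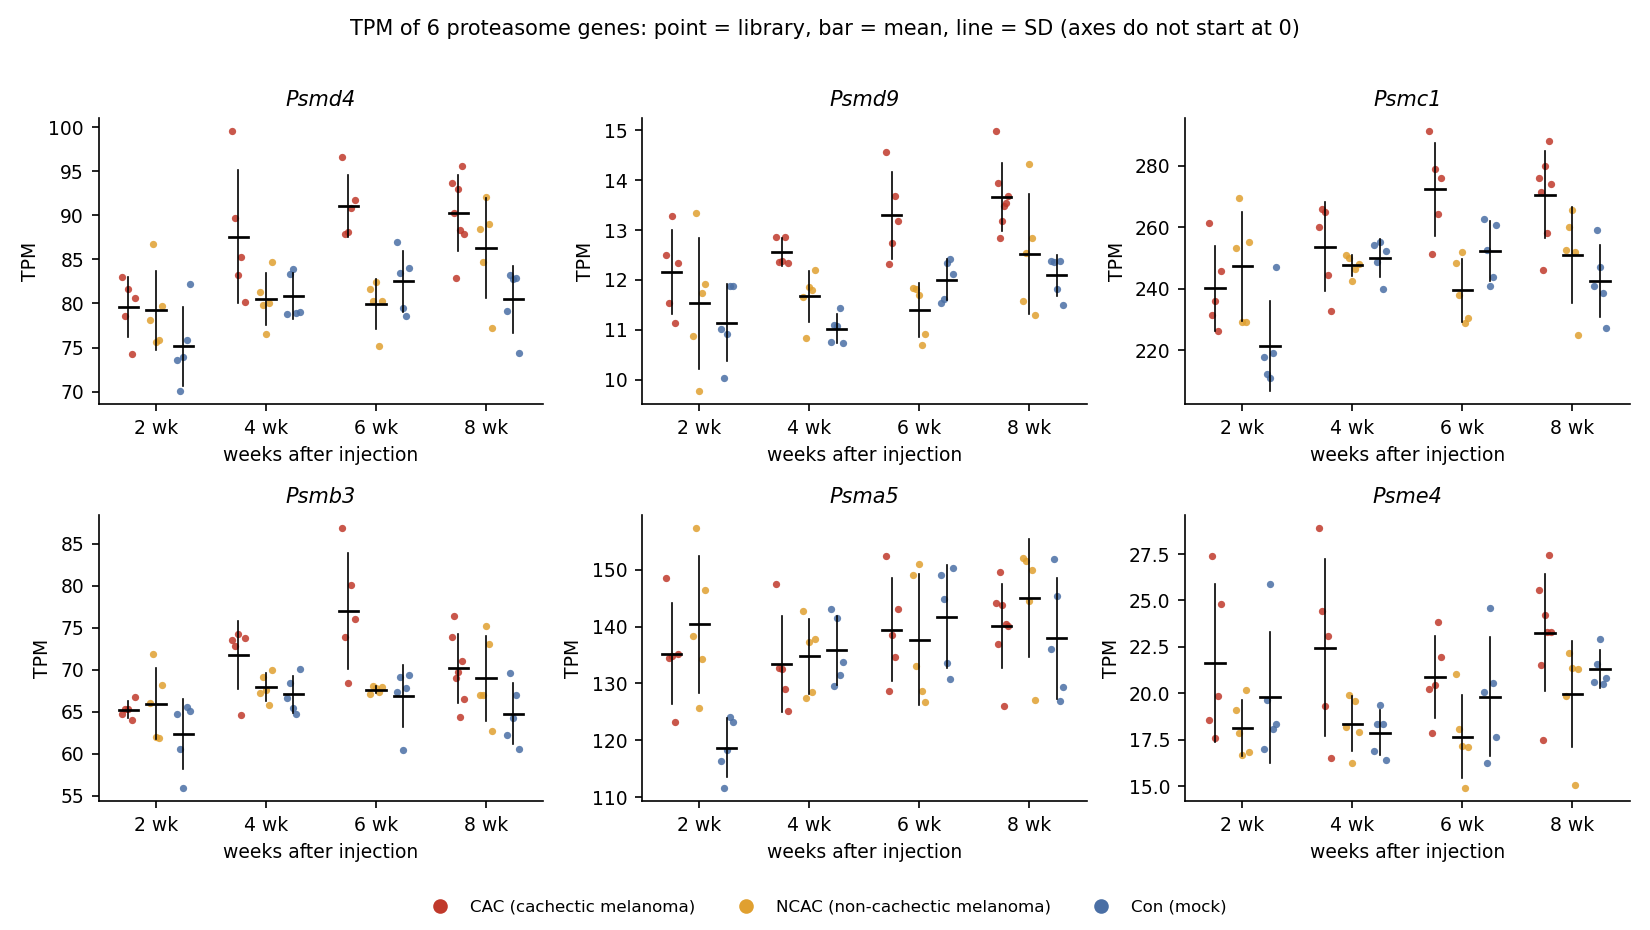
TPM of Psmd4, Psmd9, Psmc1, Psmb3, Psma5 and Psme4 in each library, by week, with CAC, NCAC and Con side by side and bars for group means. The vertical axes do not start at 0. Psmd9 lies between 12.8 and 14.98 TPM in CAC at 8 weeks and between 11.5 and 12.4 TPM in Con, while the arms overlap for Psme4 in every week.

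Core and regulatory genes were set against each other in each arm. The mean log2 level of the 14 core genes minus that of the 17 regulatory genes was 0.40, 0.40, 0.42 and 0.40 in CAC at 2, 4, 6 and 8 weeks. It was 0.41, 0.44, 0.45 and 0.43 in NCAC and 0.41, 0.43, 0.40 and 0.40 in Con. Differences between arms within a week lay between −0.04 and 0.05, and the libraries of the arms overlapped in all 12 comparisons. CAC minus NCAC was −0.01, −0.04, −0.03 and −0.03 at 2, 4, 6 and 8 weeks, and NCAC minus Con was 0.002, 0.01, 0.05 and 0.03. At 4 and 8 weeks, 4 of 5 and 4 of 7 CAC libraries lay below all NCAC libraries, and 1 CAC library at 4 weeks lay above them all. Against Con at 4 weeks, 4 of 5 CAC libraries likewise lay below all Con libraries and 1 above. At 6 weeks 4 of 5 NCAC libraries lay above all Con libraries. CAC minus Con had no steady sign, and these differences were not tested. With medians in place of means the difference was −0.0998 and −0.0761 in CAC against NCAC at 6 and 8 weeks. In CAC against Con it was then −0.0373 and −0.0651, so at 6 weeks its sign depended on the summary used. In CAC against Con the medians of core and regulatory genes were 0.10 and 0.12 at 2 weeks and 0.08 and 0.08 at 8 weeks. In CAC against NCAC at 6 weeks they were 0.10 and 0.12.

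The activators did not all follow the particle. Psme3, which encodes the nuclear activator PA28 gamma, had 103 ± 5.09 TPM in CAC at 6 weeks, against 93.4 ± 2.99 TPM in NCAC and 96.2 ± 2.77 TPM in Con (SD, n = 5 each). It rose relative to NCAC (log2 fold change 0.14 ± 0.045, limma adjusted p = 0.0428). Psme1 and Psme2, the interferon-inducible PA28 alpha and beta, were not called in any comparison, with means over all libraries of 36.3 and 31.3 TPM. At 2 weeks their log2 fold changes in CAC against Con were −0.10 and −0.15 (limma adjusted p = 0.409 and 0.152), where all 31 tested core and regulatory genes had values above 0. Psme4 averaged 21.6, 22.4, 20.9 and 23.3 TPM in CAC at 2, 4, 6 and 8 weeks. It averaged 18.1, 18.4, 17.7 and 19.9 TPM in NCAC and 19.8, 17.9, 19.8 and 21.3 TPM in Con. The log2 fold changes of Psme4 in CAC against NCAC were 0.23, 0.26, 0.23 and 0.21, none of them called (limma adjusted p between 0.185 and 0.998), and the groups overlapped each time.

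From library to library within a group, most proteasome genes went up and down together. The correlation of deviations from the group mean over the 62 libraries had a median Pearson r of 0.53 over the 703 pairs, of which 669 were above 0. Over all pairs of tested genes in the same level range the median was 0.15. It was 0.60 among core genes, 0.67 among regulatory genes and 0.56 between core and regulatory genes. The libraries share their composition and scaling, so these are descriptions of a common variation and carry no test. The genes most like the mean of the others were the ATPases Psmc2 and Psmc1 (r = 0.93 and 0.91), Psma2 (0.89) and Psmd14 (0.88). Psmd4 and Psmd9 had r = 0.78 and 0.56, Psmb5 and Psmd10 had 0.52, and Psme1, Psme2 and Psme4 had 0.22, 0.01 and −0.02.

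Psme4 was lower where the beta ring was higher: its r with the 7 beta genes ran between −0.53 and −0.05, with a median of −0.33, whereas with the 6 ATPases the median was 0.12. Psme1 and Psme2 had r = 0.57 with each other. With the immunoproteasome subunit Psmb8 they had r = 0.45 and 0.52, which became 0.21 and 0.37 without Con library 5 at 8 weeks. Among the 14456 tested genes outside the list, those most like the mean of the 38 were Vdac2 (r = 0.92, a mitochondrial outer membrane channel), Cct7 (0.91, a subunit of the chaperonin that folds actin and tubulin) and Gorasp2 (0.91, a Golgi stacking protein). Idh3a, Rab7, Mdh1, Atp1b1, Atp5f1, Uqcrc2 and Hprt followed with r between 0.88 and 0.89. Of these outside genes, 155 had r above 0.8. The mean level of the 38 genes also varied with some marker scores, with r = 0.55 for inhibitory neuron markers and −0.51 for both microglia and endothelial markers. The other marker lists had r between −0.33 (astrocytes) and 0.42 (hypothalamus and pituitary). Among these, excitatory neuron markers had 0.10 and oligodendrocyte markers −0.01.

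**Figure D5:**
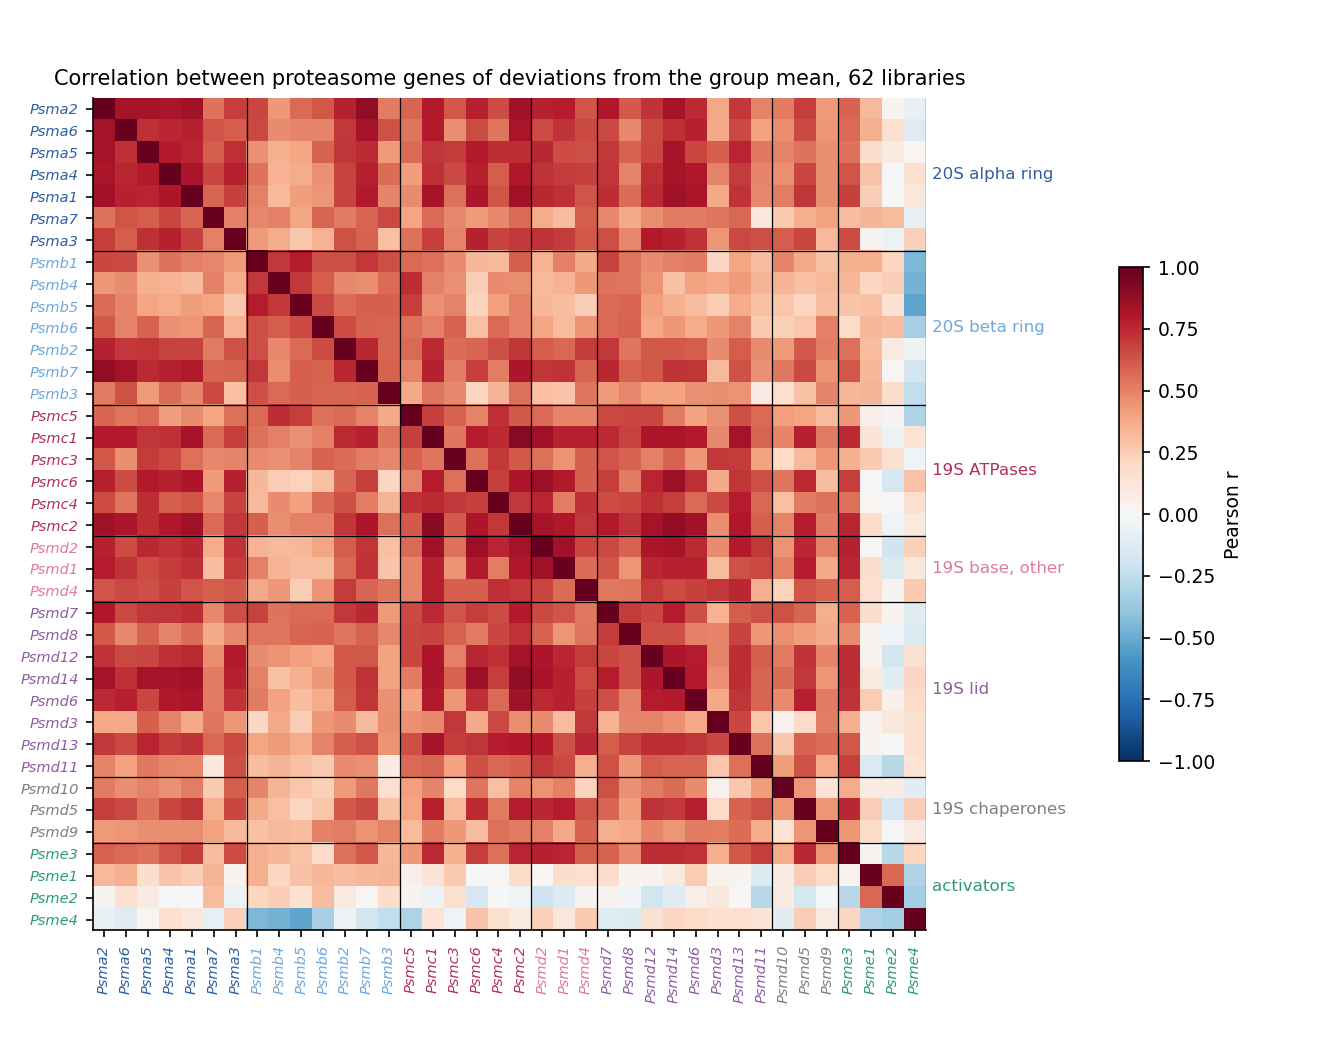
Pearson r between each pair of the 38 tested proteasome genes, from deviations of log2(TPM + 1) from the group mean over 62 libraries, with genes ordered by place in the particle. Red is positive and blue negative. Most of the map is red, with a median of 0.53, and the rows of Psme1, Psme2 and Psme4 are pale or blue.

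The interferon-inducible catalytic subunits Psmb8, Psmb9 and Psmb10, which replace the constitutive ones in the immunoproteasome, were not called within any week. At 8 weeks Psmb8 had 2.02 to 5.03 TPM in CAC (median 2.83), 2.12 to 3.00 TPM in NCAC (median 2.54) and 2.64 to 21.4 TPM in Con (median 3.74). The highest Psmb8 value belonged to Con library 5, which also had the highest Psmb9 (10.96 TPM), Psme1 (46.9 TPM), Psme2 (40.6 TPM) and lymphocyte marker score of all libraries. The log2 fold changes of Psmb8, Psmb9 and Psmb10 in CAC against Con at 8 weeks were −0.59, −0.57 and −0.11 (limma adjusted p = 0.110, 0.0936 and 0.416). None of the 5 core assembly chaperones was called within a week; Psmg1 reached 0.21 in CAC against Con at 6 weeks (limma adjusted p = 0.0550) and Pomp −0.06 at 8 weeks (limma adjusted p = 0.472).

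Nfe2l1, which encodes the factor that drives proteasome genes when proteasome activity is short, rose at 2 weeks in both tumour arms. It had 217, 209, 212, 191 and 208 TPM in CAC and 219, 203, 199, 197 and 200 TPM in NCAC, against 174, 184, 178, 187 and 191 TPM in Con. All NCAC libraries were above all Con libraries, and the lowest CAC library lay just below the highest Con library. The log2 fold changes were 0.18 ± 0.045 in CAC (limma adjusted p = 0.0193) and 0.15 ± 0.045 in NCAC (limma adjusted p = 0.0328). At 4, 6 and 8 weeks the CAC values against Con were −0.07, −0.05 and −0.06, none called. The change between 2 and 8 weeks was −0.24 (limma adjusted p = 0.0331). The call of Nfe2l1 in CAC at 2 weeks was lost with tissue marker scores as terms (limma adjusted p = 0.0683), with only these groups in the fit (limma adjusted p = 0.155) and without CAC library 1 or 5 or Con library 1. The call of its change was lost without a level filter (limma adjusted p = 0.0505), with only the groups compared (limma adjusted p = 0.0744), and without any 1 of 9 libraries (limma adjusted p from 0.0506 to 0.0844). These were CAC libraries 1 and 5 and Con library 1 at 2 weeks, and CAC libraries 1 and 2 and Con libraries 1, 2, 3 and 4 at 8 weeks. The other 3 genes of transcription control (Nfe2l2, Ddi2 and Ngly1) were not called.

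Of 14 tested proteasome-bound factors, 1 rose in CAC against Con at 2 weeks and 1 at 8 weeks. In these comparisons 4.28% and 8.60% of all tested genes were called. Rad23b, a shuttle that carries ubiquitinated proteins to the proteasome, had 98.0, 91.1, 88.6, 81.0 and 91.2 TPM in CAC and 73.5, 76.8, 74.9, 78.9 and 84.4 TPM in Con at 2 weeks (log2 fold change 0.21, limma adjusted p = 0.0370). That call was lost without a level filter (limma adjusted p = 0.0539), with tissue marker scores (limma adjusted p = 0.0853), with only these groups in the fit (limma adjusted p = 0.155), and without CAC library 1, 2, 3 or 5 or Con library 1, 2 or 3. Uchl5, a deubiquitinase of the regulatory particle, had 37.7 to 44.3 TPM in CAC (median 39.7) and 32.4 to 36.8 TPM in Con (median 33.97) at 8 weeks. The groups did not overlap (0.23, limma adjusted p = 0.00716). Uchl5 also rose in CAC relative to NCAC at 6 weeks (0.27, limma adjusted p = 0.00669) and in NCAC relative to Con at 2 weeks (0.20, limma adjusted p = 0.0362).

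Among the ubiquitin ligases known from wasting muscle, Fbxo32, which encodes atrogin-1, one of the most used markers of muscle atrophy, was not called in any comparison. Its log2 fold changes in CAC against Con were 0.17, 0.05, −0.15 and −0.09 at 2, 4, 6 and 8 weeks (limma adjusted p between 0.283 and 0.864). Trim63, which encodes MuRF1, averaged 0.286 TPM and was too low to test, as was Fbxo40 with 0.159 TPM. Of the 9 tested ligase genes, 1 was called in CAC against Con at 2 weeks, where 4.28% of all tested genes were, and 2 at 8 weeks, where 8.60% were. Trim32 was called at 2 weeks (0.26, limma adjusted p = 0.0110), a call lost with tissue marker scores (limma adjusted p = 0.0646), with only these groups in the fit (limma adjusted p = 0.155) and without CAC library 1 (limma adjusted p = 0.0556). Trim32 and Fbxo21 were called at 8 weeks (0.21 and 0.25, limma adjusted p = 0.0113 and 0.00560). Trim32 rose in NCAC at 2 weeks as well (0.29, limma adjusted p = 0.00402). Among the 5 tested ubiquitin and activating-enzyme genes, 4 tested genes of the Vcp segregase, which pulls proteins out of complexes and membranes, and 8 targets of the related factor NRF2, none was called in CAC against Con in any week.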

How the data were processed

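Neocortex RNA was extracted with Trizol, made into libraries with the TruSeq stranded mRNA kit and sequenced on an Illumina NovaSeq, per the labels' protocols. The authors deposited 1 table of TPM values per gene and library, on build mm10 (submitters' processing notes). Which aligner and quantification tool made it, and whether strand was used, is not given in the sources used here. TPM is relative to the library's total, so a change in a few very abundant genes shifts all others. The step size of low values gave the relative depth, and 86.0% of 208509 low values then came out as whole reads within 0.05.

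From these values log2(TPM + 1) was computed, the 14494 genes whose mean reached 1 TPM were kept, and limma 3.58.1 (R 4.3.3, trended empirical Bayes, two-sided) was fitted to all 12 groups, with Benjamini-Hochberg adjustment over all tested genes. Groups, replicate numbers and lanes came from the labels. Alternatives were another pseudocount, no level filter, TMM scaling, robust moderation, a replicate block, marker scores or lane as terms, only the groups compared, without 3 libraries, and each library left out. The fit was also run on simulated data with noise drawn independently for each gene, without the shared variation of the proteasome genes. No result here rests on it. Gene coordinates are from GENCODE vM21 and upstream windows from RefSeq GRCm38.p6; upstream parts inside exons were not printed.

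Named within a comparison were up to 6 called genes by size or, with no call, the 2 highest and 2 lowest by t statistic, beside a fixed set; genes listed for NCAC against Con and for the average over weeks, and those with groups apart, were chosen after their values were seen. The genes and lists were chosen with earlier results of these data known. The protocol text mentions another cell line and time point, which match neither the titles nor the design.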

Additional observations from a re-analysis of the deposited data

Results flagged for a closer look

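In 11 of 276 sets examined (3.99%), 1 library had a gap to its nearest neighbour that was large against the set's whole range. Each set was 1 group of 5 or 7 libraries, and chance gives about 1 in 20. Con library 5 at 2 weeks, which also had the thalamic and hypothalamic markers, was the highest of its group for Psmc1 (247 TPM, others 211 to 219), Psmd12 (69.3 TPM, others 58.5 to 61.5), Psmd2 (151 TPM, others 127 to 133) and Psmd5 (23.6 TPM, others 18.5 to 19.4). NCAC library 5 at 8 weeks was the lowest of its group for Psmd14 (59.5 TPM, others 70.2 to 72.1), Psmd8 (76.2 TPM, others 82.5 to 85.0) and the mean log2 level of the 38 genes (6.31, others 6.47 to 6.50). Psmb3 was low in CAC library 4 at 4 weeks (64.6 TPM, others 72.8 to 74.3) and in Con library 3 at 6 weeks (60.4 TPM, others 67.4 to 69.4). Psmb6 was high in CAC library 1 at 2 weeks (136 TPM, others 123 to 125) and in NCAC library 3 at 4 weeks (142 TPM, others 131 to 134).

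The difference between CAC and Con changed between 2 and 8 weeks for Nfe2l1, by −0.24 on the log2 scale (limma adjusted p = 0.0331, from the interaction of arm and week). That call was lost without a level filter (limma adjusted p = 0.0505), with only the groups compared (limma adjusted p = 0.0744), and without any 1 of 9 libraries (limma adjusted p from 0.0506 to 0.0844).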

How the results depend on the processing

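No called value changed sign under any alternative. The number of proteasome genes called moved by over 1.5 times as follows. In CAC against Con at 2 weeks (2) it was 1 without a level filter or with TMM scaling, and 0 with marker scores as terms or with only the groups compared. At 6 weeks (1) it was 0 with TMM scaling or only the groups compared, and 2 without 3 libraries. At 8 weeks (4) it was 0 with the replicate block, 2 with only the groups compared, 8 with marker scores and 9 without 3 libraries. In CAC against NCAC it was, at 6 weeks (8), 5 without a filter, 0 with TMM scaling or marker scores and 1 with only the groups compared, and, at 8 weeks (0), 2 without 3 libraries. In NCAC against Con at 2 weeks (15) it was 8 without a filter, 23 without 3 libraries, 2 with marker scores and 0 with only the groups compared. The CAC average over weeks (21) fell to 8 with TMM scaling. With only the groups compared fewer libraries enter the spread. For the other changes the cause was not tested. Counts under an alternative, also with a library left out, are given without the share of all tested genes called in the same fit. They therefore do not show whether calls of proteasome genes moved more than calls of other genes.

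With each library left out in turn, counts ran from 0 to 9, 0 to 1, 0 to 1 and 0 to 8 in CAC against Con at 2, 4, 6 and 8 weeks, from 0 to 2, 0 to 14 and 0 to 1 in CAC against NCAC at 4, 6 and 8 weeks, from 0 to 22 in NCAC against Con at 2 weeks and from 16 to 26 for the CAC average; they were 0 throughout in the other comparisons. Core minus regulatory, taken with medians in place of means, was −0.0373 and −0.0651 in CAC against Con at 6 and 8 weeks, −0.0998 and −0.0761 in CAC against NCAC at 6 and 8 weeks, and 0.0110 in NCAC against Con at 8 weeks. With means, it ran from −0.0533 (without CAC library 5) to −0.0242 in CAC against NCAC at 4 weeks when each library was left out.

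Over 124 named values and 2986 alternative values, 295 calls were lost and 24 gained, and 53 of 1256 uncalled values changed sign. Replicate numbers did not pair libraries: 19 of 60 same-number pairs had r above 0.1 (median 0.022), and r with the own number exceeded the mean r with the other numbers in 34 of 60. With the replicate block NCAC against Con at 2 weeks had 17 calls and Psmd4, Psmd9, Psmc1 and Psma6 in CAC against Con at 8 weeks had adjusted p from 0.0557 to 0.155, and Trim32 there 0.0948. TPM and about 48.2 M reads per library leave Psma8, with about 30.1 reads, too low to test.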
